A study of Mus musculus with 36 samples.

Results

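Zrsr1 was knocked down in Lin-Kit+ cells of Zrsr2-knockout (KO) mice, the progenitor-rich fraction of bone marrow that lacks markers of mature lineages and carries the receptor Kit. The libraries were chosen by their titles: 4 of the series' 36 carried a hairpin RNA against Zrsr1 (sh1 or sh10) in Zrsr2-KO cells, and 2 carried a control hairpin in Zrsr2-KO cells. Each hairpin was run once in experiment 1 and once in experiment 2. All 6 came from Zrsr2-deficient C57BL/6 cells that were transduced and cultured ex vivo, so the control cells also lacked Zrsr2. The 6 libraries of the same design from wild-type (WT) cells, 4 with sh1 or sh10 and 2 with the control hairpin, are used for the difference between genotypes. The age and sex of the mice, the promoters of the hairpins and whether the experiments used separate mice are not given for these cells in the sources used here, so p-values measure the spread between libraries, which may be technical.

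Most mouse introns are removed by the major spliceosome. A small class, the U12-type introns, has its own 5′ splice site and branch point sequences and is removed by the minor spliceosome. ZRSR2 is a protein of that machinery and helps it to recognise where U12-type introns end, and mutations of the human gene occur in myeloid malignancies. Zrsr1 is its mouse paralog, an intronless copy, and the comparison asks what its depletion adds in cells that already lack Zrsr2.

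The tables gave, for each intron, reads that cross an exon-intron boundary and spliced reads that join its flanking exons, in polyA-selected RNA. The 6 Zrsr2-KO libraries held 30481450 to 37529287 spliced reads and 1150967 to 1902580 exon-intron reads. Exon-intron reads were scarcer in experiment 2 than in experiment 1 (1150967 to 1247328 against 1336774 to 1902580), and among introns with at least 20 such reads, 26.9% to 30.2% had none at one end in experiment 2, against 10.9% to 12.8% in experiment 1. Gene expression was taken from spliced reads summed over a gene's introns. Zrsr1 has no listed intron, so its own level, and with it the depth of the knockdown, could not be measured. Zrsr2 had 3 and 5 spliced reads with sh1, 46 and 4 with sh10 and 3 and 57 with the control hairpin in KO cells, and 725 to 1085 in the 6 WT libraries. The KO labels therefore hold in every library, although the sh10 library of experiment 1 and the control library of experiment 2 stood above the other 4.

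Retention of an intron is given as the authors' percentage, 100 times the exon-intron reads over the sum of exon-intron reads and 2 times the spliced reads. U12-type introns were classed from sequence, on mm10 with GENCODE M21 exons: the first 8 bases within 1 mismatch of ATATCCTT or GTATCCTT, an AG or AC end, and an 8-base stretch in the last 40 bases within 2 mismatches of the branch motif TCCTTAAC. Of 10339 introns whose 2 ends were known, 69 in 66 genes met this rule (0.667%), and 60 of the 69 had enough reads to be tested. The other 9 were in Tns1, Scn9a (2 forms), Cfap69, Grk3, Ttc23, Mapk8, Mapk12 and Mapk11. A wider set rested on the 5′ end alone: 133 of 22878 introns with a known 5′ end (0.581%) began with ATATCCTT or GTATCCTT exactly, and 95 of these were tested, 42 of them also in the class.

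The splice sites of 6 introns of the class with larger retention changes, none of them called, are printed first, then those of 3 with changes near 0 and the 5′ sites of 3 introns of the wider set. Capitals mark the 8 bases compared with the U12 5′ site, and, in the 3′ ends, the 8 bases closest to the branch motif. The strand is that of the gene.
Tcp1 intron 5 (chr17:12919926-12920275, plus strand, 350 bases), 5′ end: GTATCCTTgaat
Tcp1 intron 5, 3′ end: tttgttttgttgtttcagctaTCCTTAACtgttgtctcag
Pola2 intron 3 (chr19:5958876-5959032, minus strand, 157 bases), 5′ end: GTATCCTTttct
Pola2 intron 3, 3′ end: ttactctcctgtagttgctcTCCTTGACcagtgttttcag
Polr2e intron 4 (chr10:80036843-80036914, minus strand, 72 bases), 5′ end: GTATCCTTtact
Polr2e intron 4, 3′ end: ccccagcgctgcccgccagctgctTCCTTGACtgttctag
Mlst8 intron 1 (chr17:24478163-24478319, minus strand, 157 bases), 5′ end: GTATCCTCctct
Mlst8 intron 1, 3′ end: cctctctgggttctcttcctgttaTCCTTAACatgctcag
E2f6 intron 4 (chr12:16820385-16822092, plus strand, 1708 bases), 5′ end: ATATCCTTccat
E2f6 intron 4, 3′ end: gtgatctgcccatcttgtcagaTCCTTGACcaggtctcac
Vps9d1 intron 6 (chr8:123248207-123248613, minus strand, 407 bases), 5′ end: GCATCCTTacag
Vps9d1 intron 6, 3′ end: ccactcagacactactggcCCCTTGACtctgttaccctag
Pcyt2 intron 8 (chr11:120612084-120612462, minus strand, 379 bases), 5′ end: GTATCCTCtgct
Pcyt2 intron 8, 3′ end: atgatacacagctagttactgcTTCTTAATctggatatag
Ciao2b intron 1 (chr8:104641391-104641548, minus strand, 158 bases), 5′ end: ATATCCGTcgct
Ciao2b intron 1, 3′ end: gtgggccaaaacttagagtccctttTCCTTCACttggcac
Usp21 intron 10 (chr1:171282803-171283014, minus strand, 212 bases), 5′ end: ATATCCTAatct
Usp21 intron 10, 3′ end: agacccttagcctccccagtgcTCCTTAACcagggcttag
Sri intron 4 (chr5:8062428-8063259, plus strand, 832 bases), 5′ end: GTATCCTTtacc
Srpk2 intron 5 (chr5:23540482-23545522, minus strand, 5041 bases), 5′ end: GTATCCTTtgct
Mcts1 intron 4 (chrX:38606073-38611765, plus strand, 5693 bases), 5′ end: GTATCCTTccca
All 12 lie between coding exons, and Sri, Srpk2 and Mcts1 are outside the class because their 3′ end was not known.

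Mean retention of the 60 U12-type introns was higher in all 4 knockdown libraries than in both control libraries of Zrsr2-KO cells. Their mean retention was 20.4% and 15.9% with sh1 and 23.0% and 16.8% with sh10 in experiments 1 and 2, against 15.1% and 12.3% with the control hairpin. The group means were 19.02% ± 3.25 (SD, n = 4) with knockdown and 13.7% ± 1.97 (SD, n = 2) with control. This separation depended on taking the mean. The median intron had 7.13% with sh10 of experiment 2, below 7.68% with control of experiment 1. With reads pooled over the class, sh1 of experiment 2 (5.36%) lay below the control of experiment 1 (6.63%). By median and by pooled reads, each knockdown library exceeded the control of its own experiment. In WT cells the same introns averaged 10.4% ± 1.86 with knockdown (n = 4) and 10.6% ± 0.934 with control (n = 2), and the groups overlapped. The 6363 tested introns whose ends were known and that fell outside the class averaged 10.3% ± 1.80 with knockdown and 9.66% ± 1.45 with control in KO cells. The 95 introns with an exact U12 5′ site gave the same order in KO cells, 17.6% ± 3.92 with knockdown and 10.7% ± 2.41 with control, against 8.10% ± 1.38 and 8.53% ± 1.58 in WT cells. With sh1 the 95 averaged 18.7% and 14.6%, with sh10 22.6% and 14.4%, and with the control hairpin 12.4% and 8.97%, so the 4 knockdown libraries again lay above both controls by the mean. By the median intron, sh1 of experiment 2 (5.28%) lay below the control of experiment 1 (7.20%). Class values of this kind are descriptions and carry no test.

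**Figure D1:**
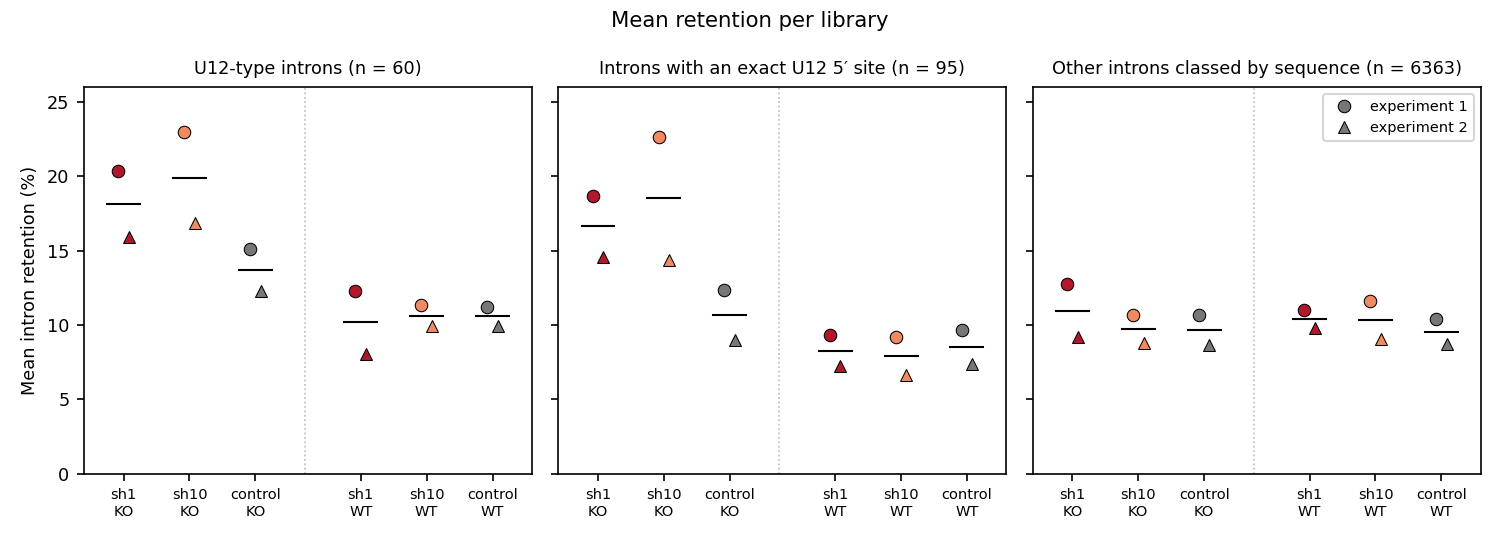
Mean retention (percent, y axis) of U12-type introns, of introns with an exact U12 5′ site and of other sequence-classed introns, per library, with hairpin and genotype on the x axis. Circles are experiment 1, triangles experiment 2 and bars the mean of 2 libraries; the 4 Zrsr2-KO knockdown libraries lie above both KO controls in the first 2 panels, and the WT libraries do not separate.

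Per intron, the change was measured as the difference, knockdown minus control, of the log2 ratio of exon-intron to spliced reads (0.5 added to each), with experiment as a block. The median over the 60 U12-type introns was 0.78 in KO cells, with 46 above 0 and 14 below, whereas the median over other classed introns was 0.02 and 50.7% of all 46630 tested introns were above 0. The quartiles were 0.09 and 1.57 for the U12-type introns and -0.56 and 0.63 for the others. The median standard error of a single U12-type intron was 0.76, as large as the median change, so the class is described by its centre rather than by its members. In WT cells the median was -0.10 with 29 of 60 above 0 (other classed introns 0.07; 50.4% of all introns above 0), and the difference between genotypes had a median of 0.75, with 44 of 60 above 0. That difference moved between 0.49 and 1.16 when 1 library was left out; the lowest value came without the WT control library of experiment 2 and the highest without the WT control library of experiment 1.

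The class lay above the other introns with each hairpin. Against the shared controls the median was 0.56 for sh1 and 0.80 for sh10, each with 45 of 60 introns above 0, against 0.16 and -0.04 for the other classed introns. Set against the control library of its own experiment, the class shifted by 0.67 and 0.50 with sh1 and by 1.06 and 0.53 with sh10. The log2 ratio was higher than in that control for 47 and 38 of the 60 introns with sh1 and 51 and 41 with sh10. In the matching WT libraries the numbers were 32 and 25 and 28 and 27. Where both libraries had 0 exon-intron reads, fewer spliced reads alone raised the ratio (Pole2 intron 8, sh1 of experiment 2). The shift was smaller in experiment 2 for both hairpins (median 0.61, 39 of 60 above 0) than in experiment 1 (0.76, 52 of 60), and exon-intron reads were fewer there.

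**Figure D2:**
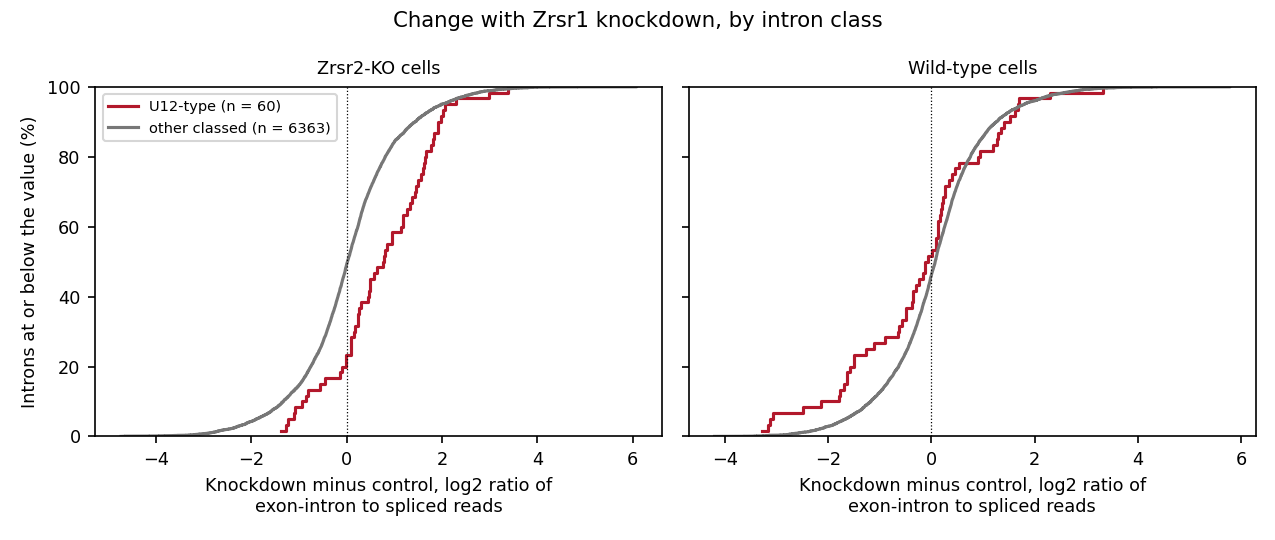
Cumulative share of introns (percent, y axis) against the change in the log2 ratio of exon-intron to spliced reads, knockdown minus control (x axis), for 60 U12-type introns (red) and other sequence-classed introns (grey). In Zrsr2-KO cells the red curve lies to the right, with medians of 0.78 and 0.02; in WT cells the curves cross near 0, with medians of -0.10 and 0.07.

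No single intron passed the test. With edgeR's diffSpliceDGE, 0 of 46630 introns (0%) had an adjusted p under 0.05 in the KO comparison, for sh1 alone, for sh10 alone or between genotypes. An unadjusted p under 0.05 was found for 2055 introns in the KO comparison, 1965 for sh1, 2045 for sh10 and 1468 between genotypes. In each case that is a share below 0.05 of the 46630, so there was no excess over the unadjusted threshold. Those with higher retention numbered 1214 (2.60%) for sh1 and 933 (2.001%) for sh10, and 792 (1.70%) had a more positive change in KO than in WT cells. A limma fit on the log2 ratios called 2 introns in the KO comparison, Gss intron 4 (change 1.68, adjusted p = 0.038) and 1700047M11Rik intron 2 (change -4.13, adjusted p = 0.0448), 6 for sh1 alone, 1 for sh10 alone and 0 between genotypes. Of the 60 U12-type introns, 5 (8.33%) had an unadjusted p under 0.05 with higher retention, against 2.01% of all introns, and 0 with lower retention. Retention in the 4 knockdown libraries exceeded both controls for 10 of 60 (16.7%; all introns 4.27%), and lay below both for 1, Smox intron 4 (all introns 3.98%). Relative to the control of the same experiment, the ratio was higher in 4 of 4 KO libraries for 23 of 60 (38.3%, all introns 12.4%). In WT cells this held for 8 of 60 (13.3%, all introns 12.5%). The 23 include Pole2 (sh1 of experiment 2) and Gbp5 (sh10 of experiment 2), where that library and its control had 0 exon-intron reads. Among the 95 introns with the exact 5′ site, 20 (21.1%) exceeded both controls in all 4 libraries and 0 lay below, and 77 had a change above 0, with a median of 0.89 (WT median -0.13).

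Tcp1 encodes a subunit of the chaperonin that folds actin and tubulin. Retention of its intron 5 was 7.29% and 4.55% with sh1 and 12.2% and 10.8% with sh10, against 3.53% and 3.13% with the control hairpin. All 4 knockdown libraries lay above both controls, sh10 above sh1, and the change was 1.37 (SE 0.42, edgeR adjusted p = 1). The value rests on 39 to 231 exon-intron reads per library, and the WT change was 0.26. Polr2e, a subunit shared by the 3 nuclear RNA polymerases, has a U12-type intron of only 72 bases. Its retention was 9.77% and 8.52% with sh1 and 19.8% and 30.0% with sh10, against 3.89% and 9.89% with control. The sh10 libraries were the highest, while sh1 of experiment 2 lay below its control (change 1.43, SE 0.45, edgeR adjusted p = 1; WT -0.16).

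Pola2 encodes the B subunit of DNA polymerase alpha-primase. Its intron 3 was retained at 49.2% and 27.5% with sh1 and 59.3% and 67.7% with sh10, against 39.6% and 9.39% with control, and at no more than 5.42% in any WT library. The groups overlapped in KO cells through the sh1 library of experiment 2, but each knockdown library exceeded the control of its own experiment (change 1.97, SE 0.62, edgeR adjusted p = 1). In WT cells all 4 knockdown libraries also exceeded their controls (change 1.40), and the difference between genotypes was 0.57. E2f6, a repressor of the E2F family, had 24.0% and 31.9% of intron 4 with sh1 and 29.9% and 30.6% with sh10, against 16.5% and 4.29% with control. These groups did not overlap, and the change was 2.06 with a wide error (SE 1.14, edgeR adjusted p = 1), from 7 to 82 exon-intron reads per KO library. The WT change was 0.95, with -0.47 within experiment 1 and 2.37 within experiment 2. In WT cells the control and sh1 libraries of experiment 2 had 0 exon-intron reads for this intron.

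Mlst8 encodes a subunit of both mTOR complexes. Retention of its intron 1 was 21.2% and 18.4% with sh1 and 35.2% and 53.4% with sh10, against 6.86% and 3.57% with control. The groups did not overlap (change 2.98, SE 1.30, edgeR adjusted p = 1), but only 4 to 62 exon-intron reads lay behind each value in KO cells. The WT change was 2.29, with -0.08 within experiment 1 and 4.67 within experiment 2. In WT cells the control and sh1 libraries of experiment 2 had 0 exon-intron reads there. Vps9d1 had 42.2% and 56.1% of intron 6 with sh1 and 55.3% and 56.8% with sh10, against 36.7% and 18.1% with control, again without overlap (change 1.62, SE 0.48, edgeR adjusted p = 1; WT 0.19). Lmbr1l intron 13 (chr15:98906335-98907536) had 53.6% and 53.8% with sh1 and 45.3% and 37.0% with sh10, against 18.7% and 26.4% with control, and this time the sh1 libraries were the higher ones (change 1.64, SE 0.66, edgeR adjusted p = 1). Intron 6 of D10Jhu81e had 20 and 27 exon-intron reads with sh1 and 13 and 16 with sh10, against 7 and 0 with control, beside 159 to 277 spliced reads.

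The other 4 of the 10 U12-type introns above both controls in all knockdown libraries were in Rhbdd2, Cgrrf1, 9930104L06Rik and the overlapping genes Gm43302 and Gbp6. Rhbdd2 intron 2 had 35.1% and 30.6% with sh1 and 27.4% and 7.41% with sh10, against 4.29% and 6.75% with control (change 2.30). Cgrrf1 intron 3 had 15.6% and 15.2% with sh1 and 30.0% and 15.6% with sh10, against 9.39% and 7.62% (change 1.27). The sh10 library of experiment 2 was the nearest to the controls in Rhbdd2, and that of experiment 1 the highest in Cgrrf1.

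Some U12-type introns with high retention did not follow. Pcyt2, which makes the precursor of phosphatidylethanolamine, had 73.4% and 58.7% of intron 8 with sh1 and 67.7% and 65.8% with sh10, against 61.6% and 74.9% with control. These groups overlapped fully (change -0.13, SE 0.25), on 398 to 888 exon-intron reads, the best covered of the introns printed above. Ciao2b intron 1 (iron-sulfur protein assembly) had 29.9% and 20.95% with sh1 and 25.9% and 13.1% with sh10, against 20.7% and 20.7% with control, and Usp21 intron 10 (a deubiquitinase) had 40.3%, 21.2%, 34.3% and 26.5%, against 36.0% and 22.1%. Both changes were near 0 (0.09 and 0.10). Smox intron 4 (polyamine breakdown) lay the other way, with 56.4% and 21.6% with sh1 and 34.6% and 36.0% with sh10. The control libraries had 58.6% and 58.3%, from only 17 and 14 exon-intron reads and 6 and 5 spliced reads. Its change was -1.23 (SE 0.71).

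**Figure D3:**
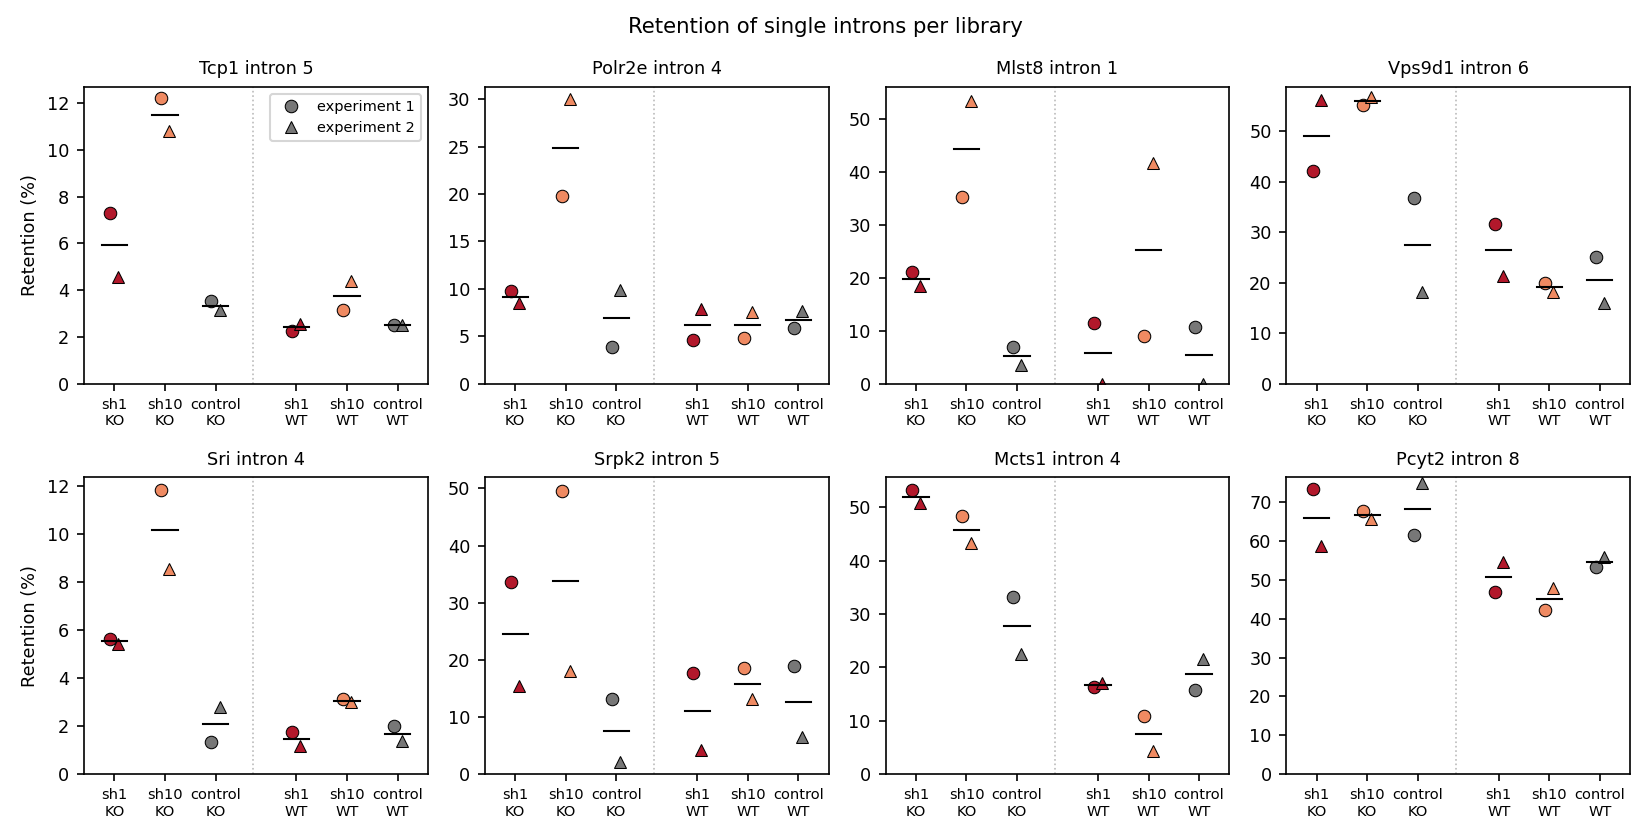
Retention (percent, y axis) of 8 introns per library, by hairpin and genotype (x axis); circles are experiment 1, triangles experiment 2 and bars the mean of 2 libraries. Tcp1, Mlst8, Vps9d1, Sri, Srpk2 and Mcts1 have all 4 Zrsr2-KO knockdown libraries above both KO controls, Polr2e has not, and in Pcyt2 the groups overlap at 58.7% to 74.9%.

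Within the class, the 5′ site went with the size of the change. The 42 introns with an exact 5′ site had a median change of 1.05, with 34 above 0 and 8 above both controls in all 4 knockdown libraries, whereas the 18 with 1 mismatch had a median of 0.29, with 12 above 0 and 2 above both controls in all 4 (Mlst8 and Vps9d1). Smox, which lay below both, also carries 1 mismatch. Usp21, Ciao2b and Pcyt2, printed above and named with their values seen, each carry 1 mismatch there. Of the 42 with an exact site, 8 had a change below 0, among them Tcea2 intron 6 (-1.27), Tmem87b intron 11 (-1.08) and Sms intron 6 (-0.93). The branch motif showed no such order: the median was 0.77 for 11 introns that match it exactly, 0.48 for 28 with 1 mismatch and 1.27 for 21 with 2. The distance between the motif's first base and the intron's end did separate a small group: the 5 introns in which it was 15 bases or less had a median of -0.86, against 1.01 for 24 introns at 16 to 18 bases, 0.95 for 23 at 19 to 21 and 0.38 for 8 beyond. By length, the medians were 0.80 for the 20 shortest introns (72 to 350 bases), 0.25 for the next 20 (351 to 864) and 1.17 for the 20 longest (911 to 9229), with no steady order. Terminal bases gave 0.79 for 39 GT-AG introns and 0.32 for 16 AT-AC introns. These are descriptions of few introns, and no difference between them was tested.

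Introns with the exact U12 5′ site that lay outside the class moved alike. The 53 such introns had a median change of 0.86, with 43 above 0 (WT median -0.32). Sri encodes sorcin, a calcium-binding protein, and its intron 4 had 5.65% and 5.42% with sh1 and 11.8% and 8.54% with sh10, against 1.34% and 2.79% with control. The groups did not overlap (change 2.02, SE 0.47, edgeR adjusted p = 1; WT 0.34). Srpk2, a kinase of the splicing factors with serine-arginine repeats, had 33.6% and 15.4% of intron 5 with sh1 and 49.6% and 17.98% with sh10, against 13.1% and 2.03% with control (change 2.70, SE 0.61, edgeR adjusted p = 1; WT 0.08). Mcts1, a translation reinitiation factor, had 53.2% and 50.8% of intron 4 with sh1 and 48.3% and 43.2% with sh10, against 33.1% and 22.5% with control, on 131 to 500 exon-intron reads (change 1.33, SE 0.33, edgeR adjusted p = 1). In WT cells its change was -0.89, and the difference between genotypes was 2.22 (edgeR adjusted p = 1).

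Among the introns with the smallest p in the whole table, Ik intron 14 and Hnrnpm intron 7 were not classed because their ends are not in the sequence source. Ik, a spliceosome component, had 14.8% and 8.06% with sh1 and 19.5% and 13.6% with sh10, against 5.98% and 2.22% with control (change 2.02, SE 0.44, edgeR adjusted p = 0.958). Hnrnpm, an RNA-binding splicing regulator, had 5.89% and 3.44% with sh1 and 15.2% and 13.2% with sh10, against 2.79% and 2.14% with control (change 1.81, SE 0.46, edgeR adjusted p = 1). Neither pair of groups overlapped, and the WT changes were 0.36 and -0.30. The 2 smallest p-values belonged to introns that were less retained with knockdown. Actb intron 5 had 1.03% and 0.515% with sh1 and 0.755% and 0.439% with sh10, against 1.38% and 1.38% with control (change -1.10, SE 0.22, edgeR adjusted p = 0.156). Itgb2 intron 7 had 3.67%, 1.29%, 2.58% and 1.34%, against 15.3% and 3.45% (change -1.97, adjusted p = 0.156), while its spliced reads numbered 1485, 2490, 1734 and 2880 with knockdown and 265 and 741 with control. For both introns the WT change had the same sign (-0.64 and -1.20). Also among the 20 with the smallest p, introns of Ly6e, Cd55, Rps28, Herc3, Hnrnpk, Exosc9, Lama5 and Zmynd8 were less retained. Introns of Sri, Arpc2, Fastkd3, Myef2 and Polr1c were more retained.

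Genes that hold a U12-type intron were mostly a little lower. Of 66 tested host genes, 8 fell (12.1%) and 2 rose (3.03%), against 4.38% and 4.62% of all genes, and their median log2 change was -0.22 (all genes -0.01; WT -0.09). The 8 were Arl2 (-0.84), Spc24 (-0.85), Sms (-0.79), Rfc5 (-0.63), Pole2 (-0.63), Tcp1 (-0.61), Polr2e (-0.44) and Lsg1 (-0.40), and the 2 that rose were Smox (0.64) and Myh9 (0.36). All 8 also had a change below 0 in WT cells (-0.56 to -0.09), where 3 hosts were called lower and 2 higher. Among the called hosts, only Arl2 had every knockdown library clear of both controls. By edgeR, Lsg1 (adjusted p = 0.0463) and Polr2e (adjusted p = 0.0489) lay close to the threshold. Rfc5 and Pole2 act in DNA replication and Spc24 in mitosis, gene groups in which many members fell, and the part of that fall in the hosts' count was not tested.

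Across genes, the knockdown was accompanied by more RNA of macrophage and dendritic cell genes and less of progenitor and proliferation genes. Of 17828 tested genes, edgeR's quasi-likelihood test with experiment as a block called 1604 at an adjusted p under 0.05 (8.997%), 824 higher and 780 lower. The calls depend on the block and on single libraries. Without the block 0 genes passed (1285 at an unadjusted p under 0.05), and DESeq2 with the block called 2588. Leaving out a library gave 236 calls without the control of experiment 2, 641 without the control of experiment 1, 964 and 967 without sh1 of experiments 1 and 2, 965 without sh10 of experiment 2 and 1766 without sh10 of experiment 1. The 2 control libraries moved the count most. Against the same controls, sh1 alone gave 657 genes higher (3.69%) and 450 lower (2.52%; together 6.21%), and sh10 alone 815 higher (4.57%) and 755 lower (4.23%; together 8.81%). CPM of all 4 knockdown libraries lay above both controls for 494 of the 824 higher genes (all genes 5.91%) and below both for 302 of the 780 lower ones (all genes 7.86%).

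WT cells gave much the same gene changes. There 827 genes rose (4.64%) and 733 fell (4.11%; together 8.75%), and 1033 genes were called in both genotypes, all in the same direction, 64.4% of the KO calls and 66.2% of the WT calls. Of the 1604 genes called in KO cells, 1587 (98.9%) had the same sign in WT cells, against 70.9% of all genes. The genes that rose in KO cells had a median log2 change of 0.78 there and 0.69 in WT cells, and those that fell -0.64 and -0.53. With edgeR 0 genes differed between genotypes (530 at an unadjusted p under 0.05), and DESeq2 called 28, 21 of them more positive in KO cells. Of those 21, 9 had their highest CPM of the 12 libraries in the WT control of experiment 2, and 5 of the 9 (Akr1c21, Cyp4a10, Cyp4a14, Cyp4a31 and Dnase1) had there at least 5 times the CPM of any other of the libraries. That library held kidney-type transcripts, such as Kap at 350.5 CPM against at most 0.270 in the other 11 libraries, and Miox at 71.1 CPM against at most 3.94, and its part in the 28 calls was not tested. Without that library 175 genes were called in WT cells and 1349 in KO cells (1297 of them among the 1604), and 163 were called in both, all in the same direction.

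Of 11 tested macrophage and monocyte markers, 9 rose and 0 fell, with a median log2 change of 1.28 (WT 1.03). Mrc1, the mannose receptor, had 45.9 and 140 CPM with sh1 and 37.4 and 95.4 with sh10, against 5.94 and 15.96 with control (log2 change 2.92, SE 0.21, adjusted p = 0.00027). C1qb, a chain of complement C1q, had 41.1 and 120 CPM with sh1 and 19.5 and 108 with sh10, against 4.07 and 15.7 with control, and its partners C1qa and C1qc rose by 3.27 and 3.31 on the log2 scale. In Mrc1, C1qa and C1qb every knockdown library lay above both controls, whereas for C1qc the sh10 library of experiment 1 (12.5 CPM) lay below the control of experiment 2 (13.8 CPM). Adgre1, which encodes F4/80, had 1000.5 and 1263 CPM with sh1 and 885 and 1044 with sh10, against 413 and 500 with control (1.28, SE 0.14, adjusted p = 0.00152). Lyz2, lysozyme, was far more abundant and rose less, with 10665 and 10363 CPM with sh1 and 11415 and 11532 with sh10, against 7554 and 7157 (0.67, SE 0.11, adjusted p = 0.00832). Csf1r (0.66, adjusted p = 0.0819) and Msr1 (0.53, adjusted p = 0.108) did not pass. The summed level of the list was 13639 and 17553 CPM with sh1 and 14133 and 20868 with sh10, against 9245 and 11105 with control. In bulk RNA, more cells of a type and more of its RNA per cell cannot be told apart. Without the control of experiment 2, 6 of the 11 were called; without any other KO library, 9 or 10.

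Alox15, a lipoxygenase of macrophages and eosinophils, had the largest rise among the genes named by rule, with 229 and 460 CPM with sh1 and 90.0 and 152 with sh10, against 11.9 and 35.0 with control (log2 change 3.32, SE 0.23, adjusted p = 0.00027; WT 3.23). Fcrls, a scavenger receptor of microglia and macrophages, had 24.9 and 48.4 CPM with sh1 and 12.5 and 46.3 with sh10, against 2.66 and 4.61 (3.17; WT 2.45). Grm6, a glutamate receptor known from retina, had 75.3 and 30.3 CPM with sh1 and 36.2 and 14.1 with sh10, against 5.61 and 2.58 (3.20; WT 2.97). All 3 were clear of the controls in every knockdown library. Cdh23, with 74.6 and 270 CPM with sh1 and 41.2 and 235 with sh10 against 12.8 and 10.1, is less certain: in the sh1 library of experiment 2, 37.3% of its introns carried the identical count of 287 spliced reads, so the gene's sum is in large part that 1 count repeated. The same pattern was at its strongest in Kcnh4, where all introns carried 22 reads in the sh10 library of experiment 2, and was present in Dnah2 (43.9% of introns) and Pkib (50%). In the KO library with the gene's highest sum, it reached 50% of introns in 23 of 1435 called genes with at least 4 introns (1.60%). Among all tested genes with at least 4 introns the number was 1382 of 12958 (10.7%). That cut leaves out Cdh23 and Dnah2.

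Dendritic cell and antigen presentation genes rose in 5 of 8 cases, with a median of 2.12 (WT 1.72) and 0 falling. Cd74, the invariant chain of MHC class II, had 473 and 644 CPM with sh1 and 678 and 667 with sh10, against 149 and 172 with control (2.01, SE 0.30, adjusted p = 0.00531). H2-Aa, a class II chain, had 51.6 and 70.8 CPM with sh1 and 62.0 and 71.9 with sh10, against 8.89 and 15.4 (2.58, SE 0.43, adjusted p = 0.00743). Itgax, which encodes CD11c, had 15.2 and 5.69 CPM with sh1 and 28.7 and 10.6 with sh10, against 4.07 and 1.49 (2.46; WT 2.80), and within each experiment both hairpins were above the control. The sum of the list was 637 and 833 CPM with sh1 and 895 and 908 with sh10, against 190 and 235 with control. The count was 1 of 8 without the control of experiment 2 and 3 of 8 without the control of experiment 1.

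Other mature lineages differed between the hairpins, which were not tested against each other. Of 12 neutrophil markers, 2 rose, Ngp (1.33) and Camp (1.22), both proteins of neutrophil granules, and the list's sum was 7038 and 8952 CPM with sh1 and 12001 and 26118 with sh10, against 4640 and 10570 with control. The 2 became 0 without either control, 4 without sh10 of experiment 1 and 1 without each of the other 3. Of 11 mast cell and basophil markers 2 rose, the basophil proteases Mcpt8 (1.34) and Prss34 (1.04). Mcpt8 had 2415 and 3467 CPM with sh1 and 1271 and 1575 with sh10, against 587 and 1203 with control. The 2 became 0 without the control of experiment 1 and 1 without that of experiment 2. Siglecf (1.14) was the 1 of 8 eosinophil markers called, and 0 were without either control. Of 8 B cell markers 0 were called by edgeR or DESeq2 (0 at an unadjusted p under 0.05), although their median of 1.68 (0.50 and 0.37 within experiments 1 and 2) exceeded that of the macrophage list; their sum was 14.5 and 33.95 CPM with sh1 and 16.4 and 33.8 with sh10, against 5.97 and 22.2 with control. Of 10 erythroid markers 0 were called by edgeR or DESeq2 (0 at an unadjusted p under 0.05), with a median change of 2.01 for sh1 and -0.87 for sh10, and sums of 484 and 134 CPM with sh1 and 42.3 and 7.63 with sh10, against 148 and 20.7 with control. These marker levels moved with the gene changes above, and their part in them was not tested.

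**Figure D4:**
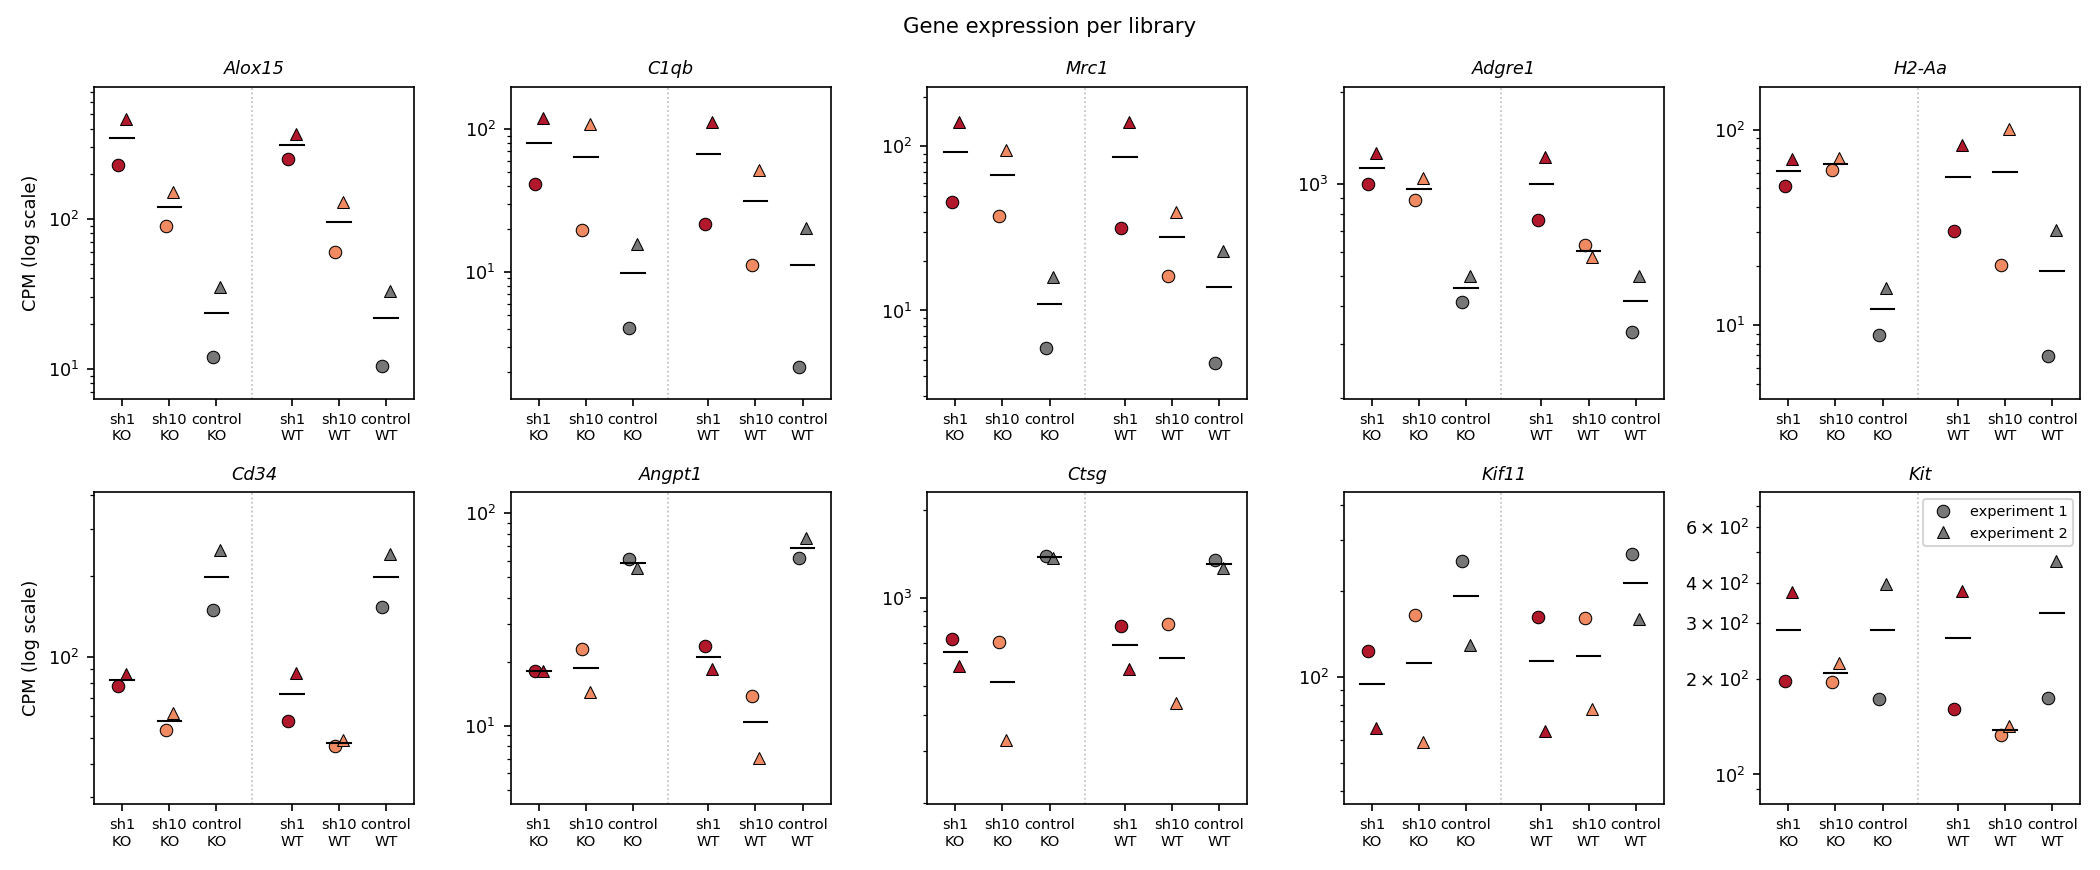
Expression (CPM, log scale, y axis) of 10 genes per library, by hairpin and genotype (x axis); circles are experiment 1, triangles experiment 2 and bars the mean of 2 libraries. Alox15, C1qb, Mrc1, Adgre1 and H2-Aa lie higher with sh1 and sh10 than with the control hairpin in Zrsr2-KO cells, Cd34, Angpt1 and Ctsg lie lower, and Kit does not separate.

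Genes of stem and early progenitor cells were lower in part. Of 16 tested, 3 fell and 0 rose (median -0.58, WT -0.56): Cd34, Erg and Meis1. Cd34, a surface protein of early progenitors, had 77.9 and 86.6 CPM with sh1 and 53.4 and 61.7 with sh10, against 149 and 249 with control (-1.41, SE 0.13, adjusted p = 0.000797; WT -1.62). Erg, a transcription factor of stem cells, had 26.6 and 19.9 CPM with sh1 and 32.3 and 17.6 with sh10, against 56.7 and 50.8 (-1.09). Both were clear of the controls in all 4 libraries. Kit itself, which defines the sorted fraction, was detected at 195 to 374 CPM with knockdown and at 172 and 399 CPM with control, and its change of -0.05 was not called. Without either control library 1 of the 16 was called, and without a knockdown library 2 to 5.

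Granulocyte-monocyte progenitor genes fell in 8 of 14 cases, and 1, Csf2ra, rose. Ctsg, a serine protease of primary granules, had 722 and 588 CPM with sh1 and 706 and 327 with sh10, against 1392 and 1369 with control (-1.22, SE 0.17, adjusted p = 0.00384; WT -0.93). Mpo, myeloperoxidase, had 2090 and 796 CPM with sh1 and 1783 and 399 with sh10, against 3173 and 1859 (-1.11, SE 0.22, adjusted p = 0.015; WT -0.72), lower than the control within each experiment although the groups overlap across them. Elane (-1.14), Ms4a3 (-0.94), Prtn3 (-0.77), the repressor Gfi1 (-0.76), Hp (-0.64) and Calr (-0.42) were the others. Csf2ra, the alpha chain of the GM-CSF receptor, had 209 and 160 CPM with sh1 and 210 and 219 with sh10, against 94.7 and 86.4 with control (1.23; WT 1.43). The 8 became 0 without the control of experiment 2, 4 without the control of experiment 1, 4 without sh10 of experiment 2, and 5 and 3 without sh1 of experiments 1 and 2.

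Proliferation genes were lower. Of 20 mitosis genes, 17 fell and 0 rose, with a median of -0.64 (WT -0.62), and all 20 had a change below 0. Kif11, a spindle motor, had 123 and 66.4 CPM with sh1 and 165 and 59.4 with sh10, against 254 and 129 with control (-0.85), and Aurkb, a mitotic kinase, 67.0 and 32.1 with sh1 and 82.7 and 37.8 with sh10, against 134 and 77.7 (-0.92, SE 0.13, adjusted p = 0.00356). Of 32 DNA replication genes, 15 fell and 0 rose (median -0.53, WT -0.40). Rrm1, a subunit of ribonucleotide reductase, had 280 and 119 CPM with sh1 and 358 and 115 with sh10, against 488 and 236 (-0.73, SE 0.10, adjusted p = 0.00325), and the helicase subunits Mcm3 (-0.72), Mcm6 (-0.71) and Mcm7 (-0.68) fell by similar amounts. Levels of these genes were lower in experiment 2 for control and knockdown alike, so the groups separated within each experiment and overlapped across them. Of 13 E2F family genes 5 fell: Rbl1 (-0.62), Tfdp1 (-0.55), E2f4 (-0.52), E2f1 (-0.49) and E2f8 (-0.45). Without the control of experiment 2, 0 of the mitosis, replication and E2F genes were called, and without the control of experiment 1 9, 7 and 0. The list medians lay below 0 in each experiment: -0.60 and -0.85 for mitosis in experiments 1 and 2, -0.46 and -0.77 for replication and -0.52 and -0.42 for the E2F family.

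Among genes with the largest falls, Angpt1, the ligand of the receptor Tie2, had 18.1 and 18.1 CPM with sh1 and 22.9 and 14.5 with sh10, against 61.2 and 55.2 with control (-1.59, SE 0.19, adjusted p = 0.00215; WT -2.15). Vegfc, a lymphatic growth factor, had 3.31 and 1.78 CPM with sh1 and 2.38 and 1.75 with sh10, against 8.43 and 13.99 (-2.19), and Fkbp9, a protein folding enzyme of the endoplasmic reticulum, 4.17 and 2.996 with sh1 and 6.07 and 4.94 with sh10, against 15.8 and 18.5 (-1.89). Styx, a pseudophosphatase, had 14.7 and 6.72 CPM with sh1 and 12.9 and 6.63 with sh10, against 38.6 and 23.8 (-1.56). In these 4 genes the groups did not overlap. The other lower genes named by the rule were Serpina3h (-4.13, a gene with close paralogs that may share reads), Shisa4 (at most 0.119 CPM with knockdown, against 9.78 and 0.853), Spink2 (-2.62), Npdc1 (-2.57), Rbpms2 (-2.19), Notch3 (-2.14), Plscr4 (-1.92), Pdia5 (-1.72), Afap1l1 (-1.53), Trip6 (-1.49) and Abhd17c (-1.49). In Notch3, Spink2 and Shisa4, 48.3% to 50% of introns carried 1 identical count in a library.

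**Figure D5:**
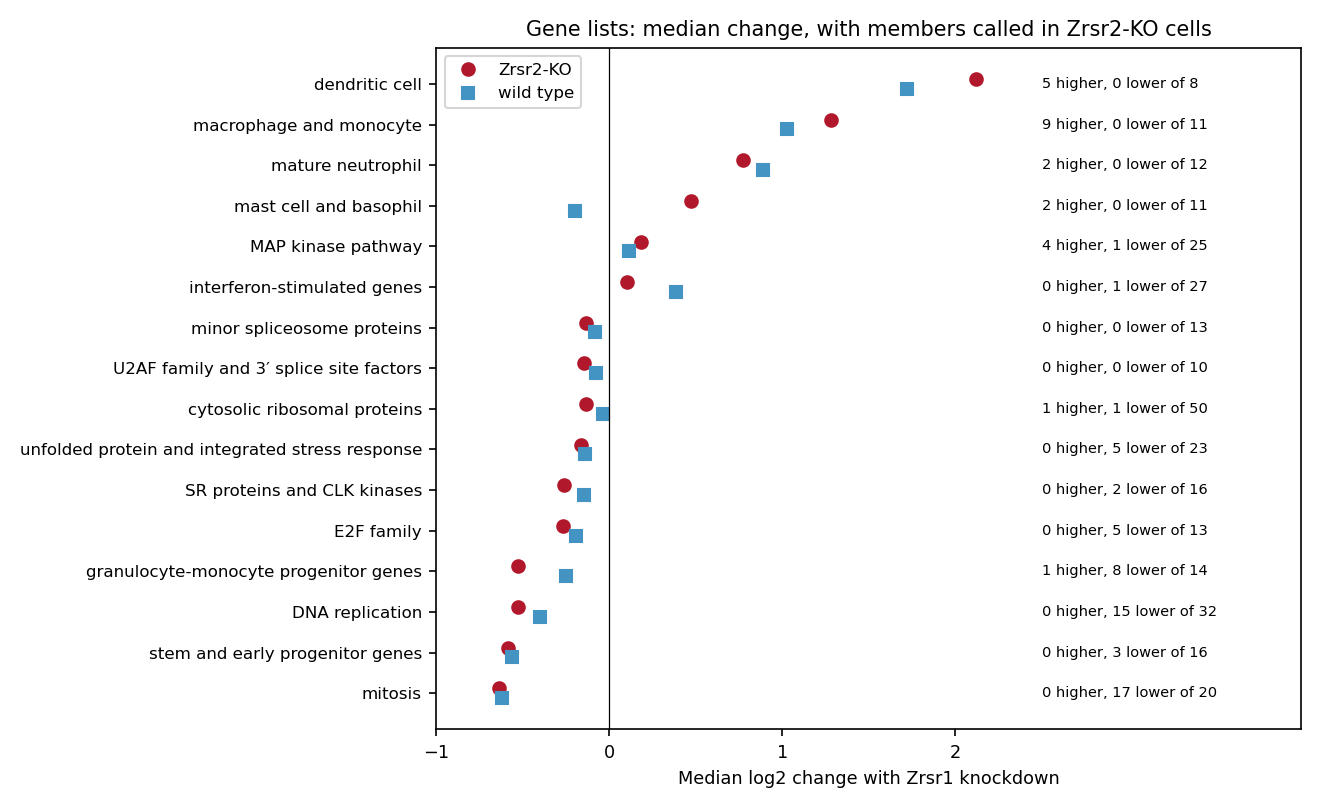
Median log2 change with Zrsr1 knockdown (x axis) for 16 gene lists (y axis) in Zrsr2-KO cells (circles) and WT cells (squares); the text at the right counts members called in KO cells. Among the 16 lists shown, dendritic and macrophage lists lie highest (2.12 and 1.28 in KO cells) and mitosis lowest (-0.64); the WT medians have the same sign in each list but mast cell and basophil.

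For scale, 4.62% of all genes rose and 4.38% fell. Of 13 minor spliceosome protein genes 0 were called by edgeR or DESeq2 (median -0.13), and 0 had an unadjusted p under 0.05. Of 10 genes of the U2AF family and other 3′ splice site factors 0 were called by edgeR (median -0.15; 3 with an unadjusted p under 0.05), and DESeq2 called 3 lower. U2af1, the closest relative in the major spliceosome, had a change of -0.33 (edgeR adjusted p = 0.0721). Of 16 genes for SR proteins and CLK kinases 2 fell, Tra2b (-0.51) and Srsf6 (-0.38), and 0 were called without the control of experiment 2. Of 15 nonsense-mediated decay factors 1 fell, Upf3a (-0.51), and 0 were called without either control, sh10 of experiment 2 or either sh1 library. Of 25 MAP kinase pathway genes, several of which hold U12-type introns, 4 rose and 1 fell. Map2k1, the kinase MEK1, had 116 and 115 CPM with sh1 and 138 and 152 with sh10, against 77.8 and 72.5 with control (0.87), clear of the controls in each library. Mapk13 (0.89), Mapk3 (0.54) and Araf (0.51) were the others that rose and Map2k3 (-0.70) fell; without either control library 1 of the 25 was called.

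Of 17 p53 targets 2 rose, Trp53inp1 (1.05) and Cdkn1a (0.93), an inhibitor of the cell cycle, with 24.4 and 31.5 CPM with sh1 and 16.6 and 15.5 with sh10, against 14.6 and 9.01 with control. The 2 became 0 without the control of experiment 2 or either sh1 library. Of 23 genes that respond to unfolded proteins or to integrated stress signalling, 5 fell, among them Phgdh (-0.91), Shmt2 (-0.87), Psat1 (-0.68) and Asns (-0.55), enzymes of serine, glycine and asparagine synthesis. The 5 became 0 without the control of experiment 2, 2 without that of experiment 1, 2 without sh10 of experiment 2, and 2 and 3 without sh1 of experiments 1 and 2. Of 32 oxidative phosphorylation genes 0 rose and 1 fell. Of 16 glycolysis genes 0 were called by edgeR (4 at an unadjusted p under 0.05), and DESeq2 called 2 higher. Of 20 genes of cholesterol synthesis 2 rose and 0 did without either control. Of 27 interferon-stimulated genes 1 fell, Cxcl10 (-0.73), and of 50 cytosolic ribosomal protein genes 1 rose and 1 fell.

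In some stretches of the genome, introns of neighbouring genes had nearly the same spliced count in a library. The 3 longest of these in the KO libraries, by introns, are given. The first was in the sh10 library of experiment 2. Over chr3:90451183-90695667, 66 introns of 17 genes had a median of 10672 spliced reads, 60 of them within 5% of it. Ilf2 there reached 3917 CPM, against 83.6 to 209 in the other libraries, and Snapin 909 CPM, against 14.4 to 21.4. Over chr7:30267943-30482464, 84 introns had a median of 378 spliced reads in the sh1 library of experiment 1, 80 of them within 5% of it. Over chr13:112336276-112561849, the stretch held 41, 37 and 40 introns with sh1, sh10 and control of experiment 1. Of these, 38, 36 and 24 were within 5% of the median of their library. Of the tested genes, 16, 9 and 7 in the 3 stretches, 0 were called with edgeR.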

How the data were processed

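Per the labels' protocols, total RNA was polyA-selected and made into sequencing libraries. Per the file headers, the authors deposited for each intron raw counts of reads across its 2 exon-intron boundaries and of spliced reads, a covered fraction (not used here) and a retention percent, recomputed exactly from the counts. The build is mm10, per the submitters' processing notes; the sources used here do not name the aligner or counter. Every column belonged to a labelled sample. Introns were matched to GENCODE M21, and intron ends were read from M21 transcripts with an exon over them. Members and lists were chosen with earlier results of these data known.

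Spliced counts were summed per gene and tested on all 12 Lin-Kit+ libraries with edgeR 4.0.16 (R 4.3.3): TMM, filterByExpr, quasi-likelihood test, 1 coefficient per group plus the experiment, Benjamini-Hochberg threshold 0.05. Printed CPM values divide by a library's total of spliced reads, without TMM factors. A gene's log2 change is the fitted one, with TMM, so the 2 scales can differ. Summing over introns weights genes with many introns and counts a read again at each intron it is listed under. Introns were tested with edgeR's diffSpliceDGE on exon-intron against spliced counts, with sizes and standard errors from limma 3.58.1. Total counts of a library limit precision: low-count introns have wide errors, and the errors cover these libraries only. The experiment numbers pair the libraries: deviations of same-experiment libraries from their group means correlated at 0.535 to 0.616 in all 30 pairs. With 2 libraries per group, deviations in experiment 2 mirror those in experiment 1, so each correlation is counted once per experiment. Both tests were tested on simulated data. DESeq2 1.42.0, limma-voom, other filters, left-out libraries and no block were alternatives. Genes were named by rule: up to 15 rising and 15 falling called genes, by size of change, with at least 5 CPM in 1 group, no overlap of groups and 1 sign for both hairpins; then up to 4 per list by p. Introns were named as up to 20 with the smallest p in the table and up to 20 in the U12-type class. The introns of Srpk2, Mcts1, Pcyt2, Ciao2b, Usp21 and Smox, and further called members of lists, were named with their values seen. The exact 5′ site set, the counts of list members under each alternative, 2 further read filters and the fit without the WT control library of experiment 2 were alternatives chosen after seeing the data.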

Additional observations from a re-analysis of the deposited data

Results flagged for a closer look

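In 5 U12-type introns the log2 ratio exceeded the control of its experiment in all 4 Zrsr2-KO knockdown libraries. In all 4 WT knockdown libraries it fell short of that control. The share of all tested introns with this pattern was not counted. The difference between genotypes was not called by edgeR's diffSpliceDGE (adjusted p = 1 for each). Intron 4 of Gm43302;Gbp6 changed by 1.18 in KO cells and by -3.17 in WT cells (log2 ratio, difference 4.35). Lztr1 intron 18 changed by 0.77 in KO cells and by -1.70 in WT cells, with retention of 24.2% and 9.09% with sh1 and 10.6% and 6.36% with sh10, against 10.5% and 4.47% with the control hairpin in KO cells. Gbp5 intron 4 changed by 1.77 in KO cells and by -1.501 in WT cells, and Rmc1 intron 11 by 0.31 and -1.11. Pole2 intron 8 changed by 1.46 in KO cells and by -3.08 in WT cells, but its exon-intron reads numbered 17 and 0 with sh1, 21 and 2 with sh10 and 18 and 0 with control in KO cells, and 0, 0, 3 and 0 with knockdown and 11 and 8 with control in WT cells. Where counts are 0 the ratio rests on the 0.5 added to each, so the pattern is not measured in Pole2. It is not measured in Gbp5 either, which had 0 exon-intron reads with sh10 and with control of experiment 2 in KO cells.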

How the results depend on the processing

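Genes changed by Zrsr1 knockdown in Zrsr2-KO Lin-Kit+ cells numbered 0 without the replicate block, 716 in the 6 KO libraries alone with the block, 2588 with DESeq2 and 236 to 1766 with 1 library left out. In the same order, genes changed by sh1 in Zrsr2-KO Lin-Kit+ cells numbered 0, 390, 2109 and 217 to 1148, and genes changed by sh10 in Zrsr2-KO Lin-Kit+ cells 0, 474, 2608 and 222 to 1476. Between genotypes DESeq2 called 28 genes, no filter on low counts 1 and leave-one-out fits 0 to 8. Introns called numbered 2, 6 and 1 with limma for the knockdown, sh1 and sh10, and 0 to 2, 0 to 2 and 0 to 6 with 1 library left out. The U12-type median was 1.05 for introns with no mismatch in the 5′ site and 0.65 to 0.81 with 1 library left out; its difference between genotypes was 1.11 and, for all exact 5′ sites, 1.10, and 0.49 to 1.16 with 1 library left out. Without sh10 of experiment 1 in KO cells, the genes called between genotypes included Ilf2 and Snapin of the chromosome 3 stretch, and Kap. The introns called there for sh10 included those of Ilf2 and Snapin. The part of these library features in the counts was not tested. Some values with no call reversed. With 1 library left out, Flt3 ranged from -1.01 to 0.66, Kit from -0.26 to 0.17, the gene Zrsr2 from -2.75 to 1.72, Pcyt2 intron 8 from -0.59 to 0.32, Ciao2b intron 1 from -0.29 to 0.47, Usp21 intron 10 from -0.10 to 0.30 and Pole2 intron 8 from -0.33 to 3.26. Within experiment 1, Flt3 was 0.70, Kit 0.19, Zrsr2 0.55 and Pcyt2 intron 8 0.58, and within experiment 2 Ciao2b intron 1 was -0.38. With limma-voom, Flt3 was 0.072. The cause of these shifts was not tested. Of 101 named genes, 92 lost their call without the block, and 0 reversed. The 2 control libraries and low exon-intron counts limit what a single intron can show.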
